A study of Mus musculus with 8 samples.

Results

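The genes described here encode the subunits of the proteasome, the assembly chaperones of its base and its activators. They were taken as the protein-coding mouse genes whose symbol is Psma, Psmb, Psmc, Psmd or Psme followed by a number. Of 44 such symbols, 43 had a row among the 37991 gene identifiers of the deposited count table. Psmb9, an inducible catalytic subunit, was not analysed here, because the identifier that the name table pairs with it had no row.

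The proteasome is the large protease that degrades proteins marked with ubiquitin chains. Its core particle is a barrel of rings of alpha subunits, which guard the entry, and rings of beta subunits, some of which carry the cutting sites. In blood and immune cells, and under interferon, the constitutive catalytic subunits can be replaced by the immunoproteasome subunits, whose products suit presentation on MHC class I. The regulatory particle caps the core: its base holds a ring of ATPases that unfold substrates, and its lid removes the ubiquitin chains. Blood stem cells are known for low protein synthesis and for their sensitivity to changes in protein quality control.

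RNA was sequenced from Flt3- LSK cells, a bone marrow fraction with haematopoietic stem cells and early progenitors, of C57BL/6J mice. Mice labelled WT were Runx1f/f, that is with a floxed Runx1 gene, and for those labelled Mut the labels state Runx1 deficiency. The product of Runx1 is a transcription factor needed for blood cells to form. There were 2 WT and 2 Mut-labelled samples of 24000 sorted cells, each read by its name as the source of 1 library of polyA-selected RNA (mRNA library) and 1 of total RNA, with ERCC spike-in RNA added to every sample. Not given in the sources used here were the age of the mice, the Cre driver, the deleted part of Runx1 and the number of animals behind a sample. The p-values therefore reflect how far these samples lie apart, and that distance may be technical in part or in whole.

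Counts on genes were 35096252 to 37924699 in the mRNA libraries and 967694 to 1218437 in the total RNA libraries, where ribosomal RNA took 93.3 to 94.5% of all counts. Runx1 went against the labels: it stood at 200 and 208 CPM in WT against 749 and 941 CPM in Mut-labelled libraries of mRNA (log2 fold change 2.05, SE 0.18, edgeR adjusted p = 0.00753; 1.73 and 0.999 under ERCC scaling). CPM is a gene count scaled to an equal library total after TMM scaling, and log2 fold changes are Mut-labelled over WT. Since these counts cover the gene as a unit, they do not test for loss of some of its exons, and every direction below is that of the labels. The gate markers Kit (884 to 1100 CPM) and Ly6a (23.7 to 38.6 CPM) were present in all mRNA libraries. So was Flt3, which the sort should exclude at the protein level. Its groups did not overlap, at 117 and 155 CPM in WT against 57.3 and 87.6 CPM in Mut-labelled libraries (edgeR adjusted p = 0.133). Of 7 gate and progenitor genes tested, 1 was called higher in either kind of library, Cd48. It stood at 47.6 and 42.6 CPM in WT against 181 and 179 CPM in Mut-labelled mRNA libraries (edgeR adjusted p = 0.00451). In total RNA libraries its log2 fold change was 2.56 (edgeR adjusted p = 3.42e-06). Summed markers of other cell types differed between the groups for erythroid genes (310 to 440 CPM in WT, 36.0 to 78.3 CPM in Mut-labelled libraries, 3 of 6 tested called lower), megakaryocyte genes (379 to 431 and 1507 to 1595 CPM, 2 of 6 called higher) and T and NK cell genes (78.0 to 89.1 and 31.5 to 32.0 CPM, 2 of 6 called lower). Most of the megakaryocyte sum was Itga2b (337 and 318 against 1345 and 1344 CPM), and 2 of the 6 estimates were negative. Lck and Nkg7, the 2 called T and NK cell genes, made up most of that sum. Only 3 of the 6 T and NK cell estimates were negative, with a median of 0.46. Neutrophil genes overlapped in their sum (1425 to 1677 and 1223 to 2507 CPM), most of which was Mpo (1044 to 1885 CPM), also a progenitor gene. Of the 11, 9 had positive estimates with an unadjusted p under 0.05 (median 2.79), of which 1 was called higher, and in total RNA libraries 5 of 7 tested were called higher. S100a8 stood at 4.90 and 5.89 CPM in WT and at 91.9 and 18.4 CPM in Mut-labelled libraries 1 and 2. The sums of the groups overlapped for macrophage and dendritic genes (250 to 268 and 213 to 312 CPM, 1 of 10 called lower, 6 with an unadjusted p under 0.05), B and plasma cell genes (1122 to 9569 and 422 to 2088 CPM, 1 of 6 called lower) and stromal and endothelial genes (209 to 232 and 167 to 225 CPM, 1 of 6 called higher and 1 lower). In total RNA libraries 3 of 3 erythroid genes and 1 of 4 B and plasma cell genes tested were called lower, 2 of 4 megakaryocyte and 1 of 4 stromal genes higher, and 0 of 4 macrophage and dendritic genes and 0 of 1 T and NK cell genes were called. No marker in these lists was at 0 across the mRNA libraries, and the part of these cells in the proteasome values was not tested.

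No proteasome gene was called as different between WT and Mut-labelled cells. In the mRNA libraries 42 of the 43 genes passed the filter on low counts, and 0 had an adjusted p under 0.05 (edgeR, background 3.64% of 17128 genes, 1.75% higher and 1.89% lower). At an unadjusted p under 0.05 there were again 0, against 15.7% of all genes tested, and the smallest adjusted p was 0.370, for Psmd5. In the total RNA libraries 40 genes passed the filter and 0 were called (background 4.22% of 10546 genes, 2.54% higher and 1.68% lower). There, 1 gene, the lid subunit Psmd3, had an unadjusted p under 0.05, against 14.8% of all genes. DESeq2 also called 0 of them in either kind of library. The genes that missed the filter were Psmb11 in both kinds of library, and Psma8 and Psme2 in total RNA.

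The estimates lay close together around 0. In the mRNA libraries 30 of 42 were negative (51.4% of all genes) and 12 positive, with a median of -0.09 against -0.01 over all genes. The most distant were Psmd7 (-0.41) and Psma8 (0.43). The count of negative estimates changed with the library left out: it was 37 without Mut-labelled library 1 and 7 without Mut-labelled library 2. In the total RNA libraries 22 of 40 were negative (50.2% of all genes) and 18 positive, with a median of -0.03 against -0.00 over all genes. The 95% interval of the difference lay within 1 log2 unit on either side of 0 for 40 of the 42 genes in mRNA libraries, against 54.4% of all genes, and for 36 of the 40 in total RNA libraries, against 61.8%. For those genes a change of 2-fold or more in either direction was outside the interval, while smaller changes were not. The width of an interval depends on how well a gene is counted. The median SE was 0.19 for the members against 0.24 over all genes in mRNA libraries, and 0.24 against 0.28 in total RNA libraries. The part of count depth in these shares was not tested. These estimates compare a gene with the rest of its library: scaled by the ERCC counts, the median of all genes moved to -0.38 in mRNA and -1.10 in total RNA libraries, and the proteasome medians to -0.49 and -1.10, with all 42 and all 40 estimates negative. Relative to all genes the ERCC medians of the proteasome genes were -0.11 and -0.00. The ERCC counts also differed between libraries of a group. They were 243670 and 118723 in WT and 312754 and 142196 in Mut-labelled mRNA libraries. In total RNA libraries they were 4293 and 5649 in WT and 7471 and 16620 in Mut-labelled libraries. The size of the shift under ERCC scaling is therefore uncertain. Fewer cells of a type and less RNA per cell cannot be told apart in such sorted bulk samples.

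**Figure D1:**
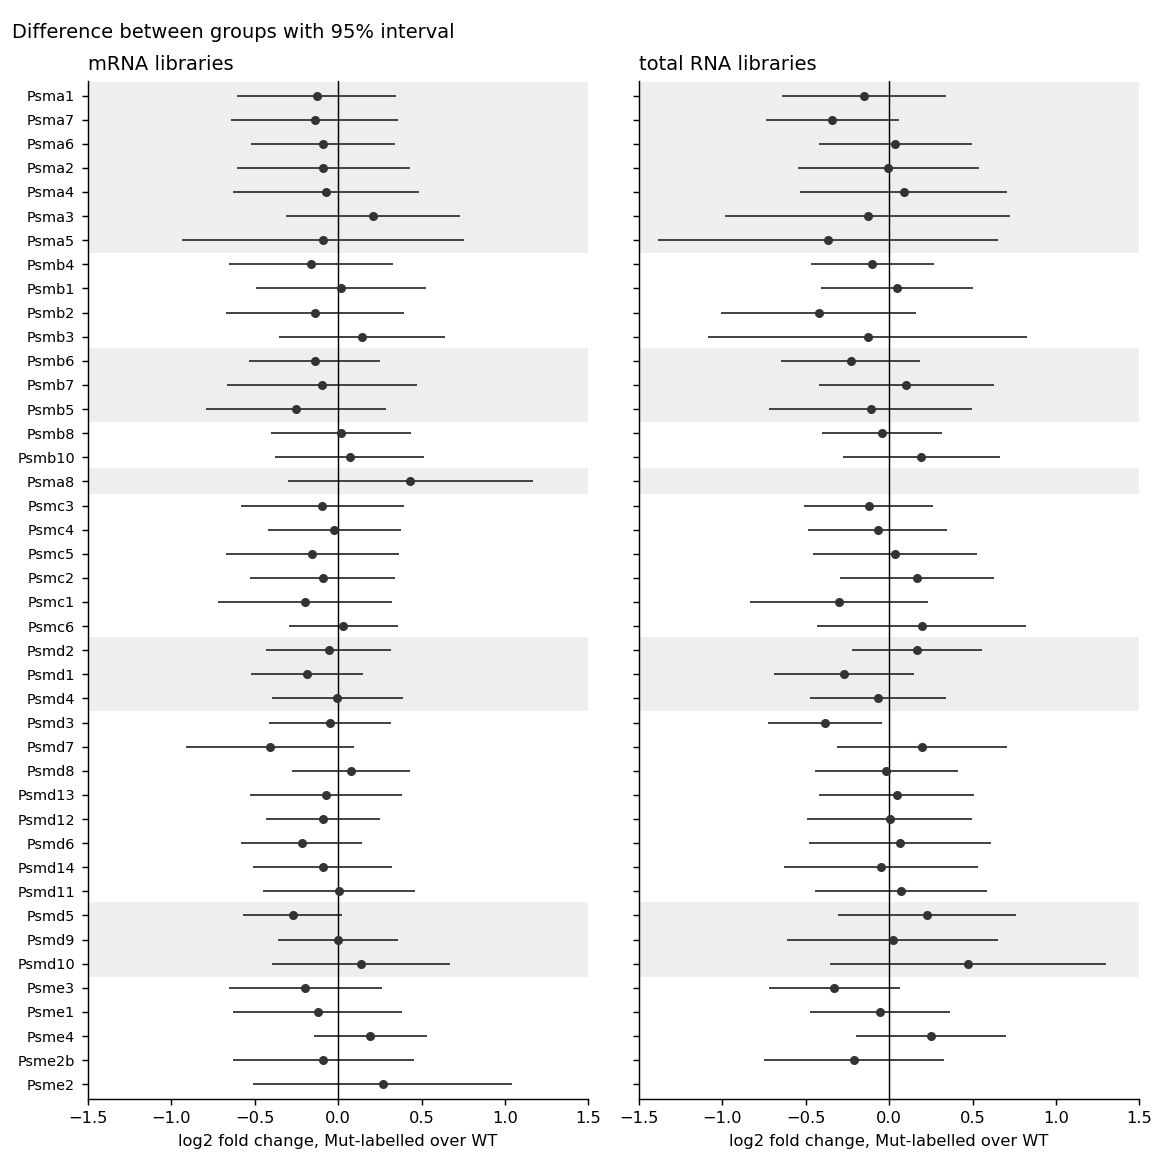
Log2 fold changes (Mut-labelled over WT, x axis) of the proteasome genes grouped by role (y axis) in mRNA and total RNA libraries, with points as edgeR estimates, bars as 95% intervals and shading to set off the roles. The estimates run from -0.41 to 0.43 in mRNA libraries, and no gene passes an adjusted p under 0.05 in either kind.

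Few genes separated the groups by rank. Of the 42 genes tested in mRNA libraries, 39 were higher in library 1 than in library 2 of both genotypes, against 33.7% of all genes. An order shared in this way widens the range of both groups and makes overlap likelier. Its part in the counts below was not tested. In the mRNA libraries both WT values lay on one side of both Mut-labelled values for 5 genes, 3 lower and 2 higher in Mut-labelled libraries, against 44.6% of all genes (23.1% lower, 21.4% higher). The 3 lower were Psmd1, Psmd5 and Psmd7, and the 2 higher were Psma8 and Psme4. In the total RNA libraries 8 genes did so, against 44.0% of all genes (21.4% lower, 22.5% higher): Psma5, Psma7, Psmb6, Psmc1 and Psmd3 were lower, and Psmb10, Psmc2 and Psmd5 higher. These 8 are among the genes tested, and Psmd5 is the 1 of them that is also in the mRNA set; it was lower in mRNA and higher in total RNA, the latter estimate turning negative under ERCC scaling. Psma8, which had too few counts to be tested in total RNA, was separate and higher there as well, at 2.92 and 5.02 CPM in WT against 10.8 and 6.70 CPM.

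In summed level, the libraries of a genotype differed more than the means of the genotypes did. Added up over the 43 genes, the mRNA level was 5031 and 4183 CPM in WT libraries 1 and 2 and 4838 and 3835 CPM in Mut-labelled libraries 1 and 2, or 4607 ± 599 against 4336 ± 709 CPM (SD, n = 2 each). Library 1 was thus 1.20 times library 2 in WT and 1.26 times in the Mut-labelled cells. Library 1 was higher than library 2 in both genotypes for 39 of the 42 genes tested, against 33.7% of all genes. Psme4 was higher in library 2 in both genotypes, and Psma8 and Psmd5 went opposite ways in the 2 genotypes. In total RNA libraries, read by name as made from the same sorted samples, the sums were 3352 and 2911 CPM in WT against 3215 and 2805 CPM in Mut-labelled libraries, and library 1 was higher in both genotypes for 24 of 40 genes, against 27.1% of all genes. The numbers 1 and 2 come from the labels, which do not say that they mark a shared day, litter or batch.

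The medians of the genes' deviations from their own mean show the same order. In the mRNA libraries they were 0.17 and -0.10 log2 units in WT libraries 1 and 2, and 0.13 and -0.21 in Mut-labelled libraries 1 and 2. As a result the sign of the median fold change turned with the library left out: it was -0.27 without Mut-labelled library 1 and -0.20 without WT library 2, but 0.11 without Mut-labelled library 2 and 0.07 without WT library 1. Summed B and plasma cell markers also differed by library number, in the other direction, at 1122 and 9569 CPM in WT libraries 1 and 2 and 422 and 2088 CPM in Mut-labelled libraries 1 and 2. Neutrophil, erythroid, megakaryocyte and stromal sums were higher in library 1 of both genotypes, macrophage and dendritic, T and NK, and gate marker sums in library 1 of 1 genotype. The part of these cells in the difference between libraries was not tested.

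**Figure D2:**
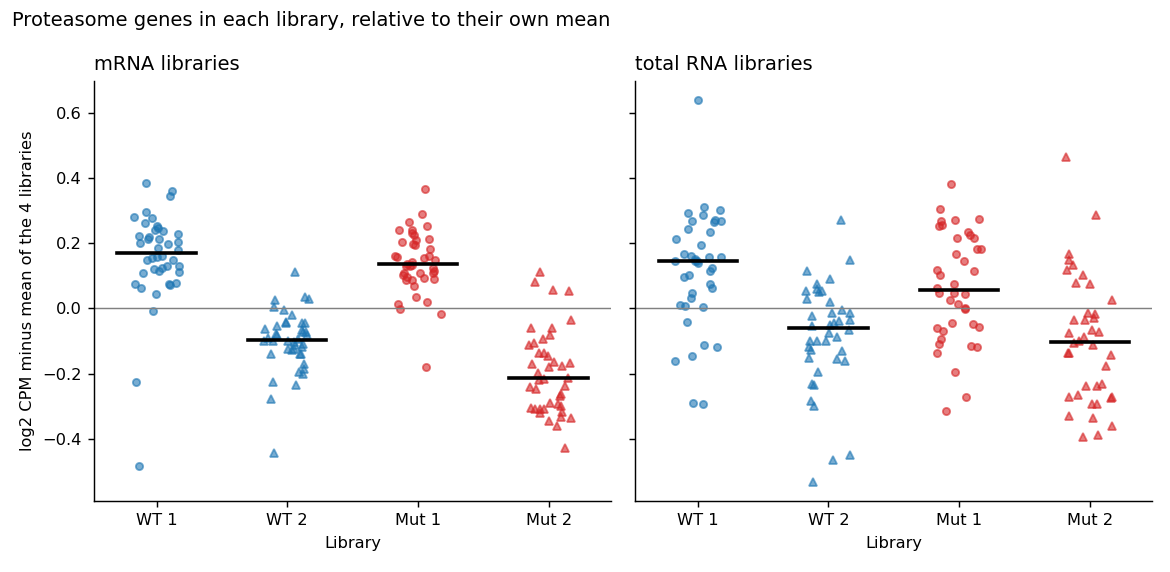
Deviation of each proteasome gene's log2 CPM from its mean over the 4 libraries of a kind (y axis) by library (x axis), with 1 point per gene and a bar at the median. In mRNA libraries the medians are 0.17 and -0.10 in WT libraries 1 and 2 and 0.13 and -0.21 in Mut-labelled libraries 1 and 2.

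The alpha ring, which forms the outer rings of the core and its gate, had 7 members. Their summed mRNA level was 712 and 566 CPM in WT libraries against 681 and 511 CPM in Mut-labelled libraries, so that each Mut-labelled library lay just below the WT library of its number. Of the 7, 0 passed the test, 6 had negative estimates and the median was -0.09. Psma7 had the most negative of these estimates. It stood at 183 and 148 CPM in WT against 175 and 126 CPM in Mut-labelled libraries (log2 fold change -0.14, SE 0.20, edgeR adjusted p = 0.854). Psma3 alone was positive, at 20.4 and 17.9 CPM in WT against 24.7 and 19.7 CPM in Mut-labelled libraries (log2 fold change 0.21, edgeR adjusted p = 0.769; -0.19 under ERCC scaling). For both genes the groups overlapped in mRNA libraries. In the total RNA libraries Psma7 measured 129 and 112 CPM against 88.4 and 101 CPM, and these groups did not overlap (log2 fold change -0.34, edgeR adjusted p = 0.451). The alpha ring median there was -0.13.

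The structural beta subunits Psmb1 to Psmb4, which build the inner rings without a cutting site, summed to 481 and 362 CPM in WT against 446 and 345 CPM in Mut-labelled libraries of mRNA. Their median was -0.06, with 2 of 4 estimates negative. Psmb4 was the most abundant at 229 and 174 CPM in WT against 203 and 157 CPM in Mut-labelled libraries (log2 fold change -0.16, SE 0.20, edgeR adjusted p = 0.818). Psmb3 stood at 21.4 and 17.4 CPM against 21.8 and 21.2 CPM (log2 fold change 0.14, edgeR adjusted p = 0.848; -0.18 under ERCC scaling). Psmb2 had the lowest estimate of all members in total RNA libraries, -0.42, where WT library 1 at 90.6 CPM stood apart from WT library 2 at 47.2 CPM and from the Mut-labelled libraries at 53.9 and 49.4 CPM (edgeR adjusted p = 0.55).

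The 3 constitutive catalytic subunits had negative estimates in the mRNA libraries, and 0 of 3 passed the test. Psmb5, the chymotrypsin-like subunit and the main target of bortezomib, measured 72.8 and 53.8 CPM in WT against 61.2 and 45.1 CPM in Mut-labelled libraries. The groups overlapped, since Mut-labelled library 1 lay above WT library 2 (log2 fold change -0.25, SE 0.22, 95% interval -0.79 to 0.29, edgeR adjusted p = 0.714). Psmb6, the caspase-like subunit, measured 144 and 123 CPM against 133 and 110 CPM (log2 fold change -0.14, SE 0.16, edgeR adjusted p = 0.799). Psmb7, the trypsin-like subunit, measured 124 and 99.0 CPM against 126 and 82.7 CPM (log2 fold change -0.10, SE 0.23, edgeR adjusted p = 0.922). In all 3 genes library 1 of either genotype was higher than library 2. In total RNA libraries Psmb5 was at -0.11, Psmb6 at -0.23 and Psmb7 at 0.10, the last turning to -0.97 under ERCC scaling, where all estimates were negative.

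The sequences before the start of Psmb5 and Psmb6 are shown because they hold the letters of the antioxidant response element TGACNNNGC, through which the factor encoded by Nfe2l1 drives proteasome genes, and that of Psmb5 also the RUNX letters TGTGGT. Psme3, an activator gene, is shown as a second member with the RUNX letters. They are RefSeq sequences of build GRCm38.p6 (the counts were made on mm9, and no coordinate is carried over), 5′ to 3′ on the gene's strand, upstream of the transcription start and without bases that lie in an annotated exon. Capitals mark the motif letters.
Psmb5, chr14:54618023-54618245, minus strand: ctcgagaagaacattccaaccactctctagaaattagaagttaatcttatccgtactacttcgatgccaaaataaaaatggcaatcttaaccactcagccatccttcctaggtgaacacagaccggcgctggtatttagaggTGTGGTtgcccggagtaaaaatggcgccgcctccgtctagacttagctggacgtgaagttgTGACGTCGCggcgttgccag
Psmb6, chr11:70525107-70525356, plus strand: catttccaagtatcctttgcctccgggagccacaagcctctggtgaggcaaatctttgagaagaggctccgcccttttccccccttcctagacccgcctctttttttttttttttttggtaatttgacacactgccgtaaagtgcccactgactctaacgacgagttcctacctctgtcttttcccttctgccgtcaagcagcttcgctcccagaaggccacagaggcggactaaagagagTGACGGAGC
Psme3, chr11:101315963-101316212, plus strand: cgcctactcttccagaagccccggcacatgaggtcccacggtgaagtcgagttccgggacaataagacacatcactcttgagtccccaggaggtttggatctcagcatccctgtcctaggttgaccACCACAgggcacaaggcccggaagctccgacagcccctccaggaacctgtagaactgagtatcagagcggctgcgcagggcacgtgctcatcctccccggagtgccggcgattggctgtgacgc
In Psmb5 the RUNX letters begin 108 bases and the antioxidant letters 47 bases before the start. In Psmb6 the antioxidant letters begin 9 bases before it. In Psme3 the RUNX letters lie on the other strand, so that they read ACCACA as printed, 124 bases before the start.

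RefSeq promoter windows of 250 bases before to 50 after the start were found for 36 of the 43 genes, as 39 windows, since some genes have more than 1 start. A total of 14 motifs was searched on both strands. The RUNX letters TGTGGT were in 6 of 39 member windows (15.4%), those of Psma6, Psmb10, Psmb5, Psmc2, Psmd2 and Psme3, against 16.8% of all 32851 windows. The variant TGCGGT was in 4 (10.3%, all windows 6.45%) and the antioxidant letters in 6 (15.4%, all windows 12.4%). The ETS letters CCGGAAG were in 13 (33.3%, all windows 8.86%), and the GC box GGGCGG in 22 (56.4%, all windows 35.7%). The interferon-stimulated response element was in 4 (10.3%, all windows 3.44%), those of Psmb3, Psmd4, Psmd9 and Psme1. The gamma-activated site was in 2 (5.13%, all windows 8.30%), those of Psmb8 and Psmd2. CCAAT was in 13 (33.3%, all windows 37.4%), the heat shock letters in 1 (2.56%, 7.86%) and the NF-kB letters in 0 (all windows 0.155%). Nuclear respiratory factor letters were in 6 (15.4%, all windows 4.60%), YY1 letters in 8 (20.5%, 6.34%) and the E-box in 4 (10.3%, 7.15%). AAGATGGCG was in 2, also a larger share than in all windows. No proteasome gene passed the test in either kind of library, so the calls cannot set the 6 genes with TGTGGT apart from the others. A match of letters is a description and not a bound site.

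Psmb8 and Psmb10, the inducible counterparts of Psmb5 and Psmb7, are the immunoproteasome subunits measured here. Psmb8 was among the most abundant members, at 259 and 207 CPM in WT against 256 and 216 CPM in Mut-labelled libraries of mRNA, and the Mut-labelled values lay inside the range of the WT values (log2 fold change 0.02, SE 0.17, 95% interval -0.40 to 0.44, edgeR adjusted p = 0.984; -0.003 under upper quartile and -0.35 under ERCC scaling). Psmb10 measured 110 and 88.9 CPM against 117 and 91.5 CPM (log2 fold change 0.07, SE 0.18, edgeR adjusted p = 0.929; -0.32 under ERCC scaling). By total RNA, Psmb8 measured 155 and 140 CPM in WT against 148 and 138 CPM in Mut-labelled libraries (log2 fold change -0.04). Psmb10 did not overlap there, at 59.4 and 61.2 CPM against 70.0 and 67.9 CPM (log2 fold change 0.19, edgeR adjusted p = 0.786; -0.89 under ERCC scaling).

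The balance of the inducible to the constitutive subunits does not depend on the scaling of a library. The counts of Psmb8 and Psmb10 together were 1.88 and 1.94 times those of Psmb5 and Psmb7 in WT mRNA libraries and 2.0 and 2.41 times in Mut-labelled libraries. All WT ratios thus lay below all Mut-labelled ratios, by 0.20 on the log2 scale, but Mut-labelled library 1 lay within 0.1 of WT library 2. The pair Psmb8 over Psmb5 gave 3.56 and 3.85 against 4.19 and 4.79, and the pair Psmb10 over Psmb7 gave 0.890 and 0.898 against 0.934 and 1.11. In the total RNA libraries the groups overlapped, at 2.10 and 2.38 in WT and 2.02 and 2.48 in Mut-labelled libraries, with a mean difference of 0.00. Both pairs overlapped there as well. Psmb8 over Psmb5 gave 3.79 and 3.86 against 3.51 and 4.58, and Psmb10 over Psmb7 gave 0.968 and 1.27 against 1.07 and 1.29. The counts in these ratios were not divided by transcript length, which is 1628 bases for Psmb8 and 899 for Psmb5. The ratios therefore compare libraries and do not give the relative amounts of the subunits. Of the 50-base stretches of Psmb5 57.1% also occur in another gene, and Psmb7 shares 34.9% of its exon bases with Nek6. With 2 libraries a group the ratios were not tested, and by level 44.6% of all genes tested in mRNA libraries also separated the groups.

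Of the core subunits of restricted tissue use, Psma8 was low and Psmb11 was near the limit of detection. Psma8, the alpha subunit of the testis proteasome, measured 6.22 and 8.92 CPM in WT against 11.2 and 9.22 CPM in Mut-labelled libraries of mRNA. The groups did not overlap, by a narrow gap between WT library 2 and Mut-labelled library 2 (log2 fold change 0.43, 95% interval -0.30 to 1.17, edgeR adjusted p = 0.616; -0.08 under ERCC scaling). Its total RNA libraries had too few counts to be tested. Psmb11, the catalytic subunit of the thymus cortex, had 5 counts in WT mRNA library 2 and 0 in the other 7 libraries, where a count of 0 allows up to 3 counts.

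The most negative estimate in mRNA libraries came from the regulatory particle, in its lid. The 6 base ATPases, Psmc1 to Psmc6, which unfold substrates and thread them into the core, summed to 757 and 634 CPM in WT against 744 and 564 CPM in Mut-labelled libraries of mRNA. Of the 6, 5 had negative estimates, with a median of -0.09. Psmc1 was lowest, at 107 and 81.8 CPM against 95.5 and 69.3 CPM (log2 fold change -0.20, SE 0.21, edgeR adjusted p = 0.784). Psmc6 was highest, at 86.0 and 79.3 CPM against 90.0 and 78.8 CPM (log2 fold change 0.03, edgeR adjusted p = 0.957; -0.36 under ERCC scaling). In total RNA libraries the Psmc1 groups did not overlap (60.4 and 51.2 against 46.3 and 44.4 CPM, edgeR adjusted p = 0.675), and neither did those of Psmc2, in the other direction (68.2 and 64.2 against 79.7 and 69.6 CPM, log2 fold change 0.17; negative under ERCC scaling).

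The base scaffold subunits Psmd1 and Psmd2 and the ubiquitin receptor Psmd4 had estimates of -0.18, -0.06 and -0.00 in mRNA libraries. Psmd1 measured 190 and 168 CPM in WT against 166 and 149 CPM in Mut-labelled libraries. The groups did not overlap, but WT library 2 and Mut-labelled library 1 differed little (SE 0.14, edgeR adjusted p = 0.649). For total RNA the Psmd1 estimate was -0.27 with overlapping groups (146 and 113 against 124 and 93.0 CPM), and Psmd2 stood at 0.17 (147 and 119 against 168 and 132 CPM; negative under ERCC scaling).

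The lid had 8 members, which summed to 1026 and 883 CPM in WT against 980 and 799 CPM in Mut-labelled libraries of mRNA. Psmd7, which pairs with the deubiquitinase subunit Psmd14, had the most negative estimate of all members. It measured 175 and 137 CPM in WT against 135 and 99.6 CPM in Mut-labelled libraries. The groups did not overlap, but WT library 2 exceeded Mut-labelled library 1 only slightly (log2 fold change -0.41, SE 0.20, 95% interval -0.91 to 0.09, edgeR adjusted p = 0.438). In total RNA libraries the same gene pointed the other way, at 82.8 and 52.2 CPM in WT against 86.2 and 69.6 CPM in Mut-labelled libraries (log2 fold change 0.20, edgeR adjusted p = 0.802; -0.90 under ERCC scaling). Psmd14 itself was at -0.09 in mRNA libraries and -0.05 in total RNA libraries.

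Psmd3, a scaffold of the lid, was the member with the smallest p-value in total RNA libraries. It measured 212 and 200 CPM in WT against 166 and 150 CPM in Mut-labelled total RNA libraries, and the groups did not overlap (log2 fold change -0.39, SE 0.16, 95% interval -0.73 to -0.04, edgeR adjusted p = 0.253). The mRNA libraries of the same samples, with far more counts, gave 234 and 207 CPM against 230 and 197 CPM, with overlapping groups (log2 fold change -0.05, SE 0.15, 95% interval -0.41 to 0.32, edgeR adjusted p = 0.941). Psmd8 had the highest lid estimate in mRNA libraries, at 162 and 141 CPM against 171 and 149 CPM (log2 fold change 0.08, edgeR adjusted p = 0.898; -0.30 under ERCC scaling). The lid median was -0.08 in mRNA and 0.02 in total RNA libraries.

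Psmd5, Psmd9 and Psmd10 encode chaperones that assemble the base and are not part of the finished particle. Psmd5 measured 75.3 and 72.8 CPM in WT against 59.5 and 63.1 CPM in Mut-labelled libraries of mRNA. The values of a group lay close together, and the groups did not overlap (log2 fold change -0.27, SE 0.12, 95% interval -0.57 to 0.02, edgeR adjusted p = 0.370). With total RNA it measured 41.9 and 53.2 CPM in WT against 55.0 and 56.2 CPM in Mut-labelled libraries (log2 fold change 0.23, SE 0.26, edgeR adjusted p = 0.775; -0.85 under ERCC scaling). Psmd10, also known as gankyrin, was the highest estimate of the group, at 0.14 in mRNA libraries (35.2 and 29.0 against 40.9 and 29.8 CPM, edgeR adjusted p = 0.869; -0.28 under ERCC scaling) and at 0.47 with total RNA (19.5 and 14.1 against 19.4 and 26.8 CPM, edgeR adjusted p = 0.665; -0.71 under ERCC scaling). Psmd9 lay at -0.00 and 0.02.

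The alternative activators bind the core in place of the regulatory particle. Psme1, a subunit of the interferon-inducible activator that works with the immunoproteasome, measured 219 and 171 CPM in WT against 207 and 151 CPM in Mut-labelled libraries of mRNA (log2 fold change -0.12, SE 0.21, edgeR adjusted p = 0.880). Its partner Psme2 had only 4.92 to 7.92 CPM, while Psme2b, a near-identical copy, had 102 and 78.6 CPM in WT against 100 and 69.9 CPM in Mut-labelled libraries. Of the 50-base stretches in the transcript of each, 59.3% for Psme2 and 69.3% for Psme2b also occurred in another gene, so the split of reads between the 2 genes is uncertain. Their sum was 110 and 83.6 CPM in WT against 108 and 76.8 CPM in Mut-labelled libraries, and the groups overlapped. Psme3, which encodes the nuclear activator, measured 261 and 213 CPM against 234 and 180 CPM (log2 fold change -0.20, edgeR adjusted p = 0.747). Total RNA gave -0.33 for it (174 and 151 against 151 and 110 CPM, edgeR adjusted p = 0.459). Psme4 stood apart from the other activators in its order of libraries. It measured 83.9 and 100 CPM in WT against 104 and 106 CPM in Mut-labelled libraries of mRNA (log2 fold change 0.19, SE 0.14, edgeR adjusted p = 0.632; -0.22 under ERCC scaling), and library 2 was the higher one in both genotypes, also in total RNA libraries (67.2 and 85.3 against 79.7 and 101 CPM).

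**Figure D3:**
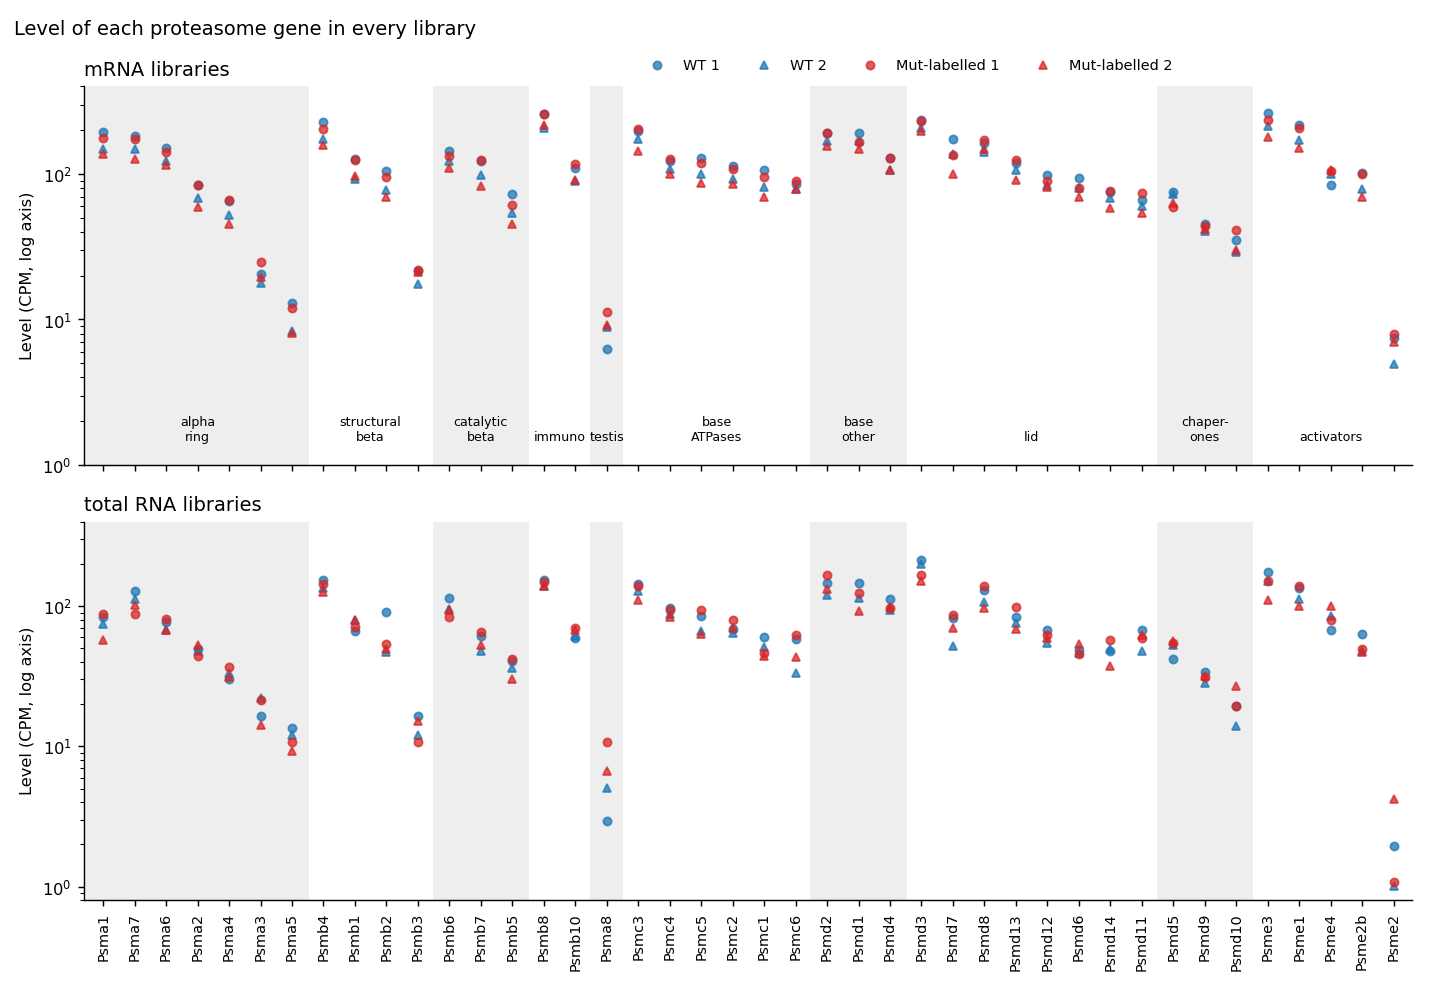
Level of each proteasome gene except Psmb11 (CPM, log y axis) in mRNA libraries (top) and total RNA libraries (bottom), with 1 point per library, WT in blue, Mut-labelled in red, and genes ordered by role along the x axis. In mRNA libraries the groups are separate for Psmd1, Psmd5, Psmd7, Psma8 and Psme4 and overlap for the other genes.

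The difference between genotypes was also compared between the 2 kinds of library, as an interaction over all 8 libraries. Of 42 members tested 0 were called, as were 0 of all 17416 genes (3.94% at an unadjusted p under 0.05). Psmd5 was the 1 member with an unadjusted p under 0.05, with a difference of 0.54 log2 units between total RNA and mRNA libraries (95% interval 0.00 to 1.09), and it did not pass the adjusted threshold. With the sorted sample as a block, 111 genes were called and again 0 members, Psmd7 having the smallest adjusted p of 0.276. The levels themselves depended on the kind of library. Relative to other genes, 37 of 40 members were lower in the total RNA library than in the mRNA library of all 4 samples (92.5%, against 47.6% of all genes), with a median ratio of 0.694 against 0.832. The ratio was lowest for Psma1 (0.462) and highest for Psma5 (1.10).

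Genes can be compared with each other only per length. Divided by the length of the longest protein-coding transcript (GENCODE M21), the mean mRNA level was highest for Psme1 (168 CPM per kb), Psmb4 (161), Psmb6 (160) and Psmb8 (144). By role, the medians were 111 CPM per kb for the 2 immunoproteasome subunits, 92.9 for the constitutive catalytic, 83.4 for the activator, 78.7 for the structural beta, 67.7 for the base ATPase, 59.7 for the base non-ATPase, 56.9 for the lid and 49.2 for the alpha ring genes. The chaperones lay at 16.6 and the tissue-restricted core genes at 2.63. Subunits of 1 ring stand in equal numbers in the particle, yet the alpha ring genes ran from 7.28 (Psma3) to 137 CPM per kb (Psma1). Transcript length and shared sequence enter these values. In 5 genes at least 50% of the 50-base stretches also occurred in another gene (Psma5, Psmb3, Psmb5, Psme2 and Psme2b), and their median was 26.7 CPM per kb (7.07 to 105). In the 18 genes with no shared stretch it was 81.0 (15.2 to 161). The tissue-restricted Psma8 and Psmb11 were left out of both medians; Psma8 also has no shared stretch and stood at 5.26 CPM per kb. Whether reads that fit several genes were counted is not given in the sources used here, and the part of sharing in these levels was not tested. Psmb7 shares 34.9% of its exon bases with Nek6 and Psmd13 17.2% with Sirt3, so that their counts are uncertain as well.

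**Figure D4:**
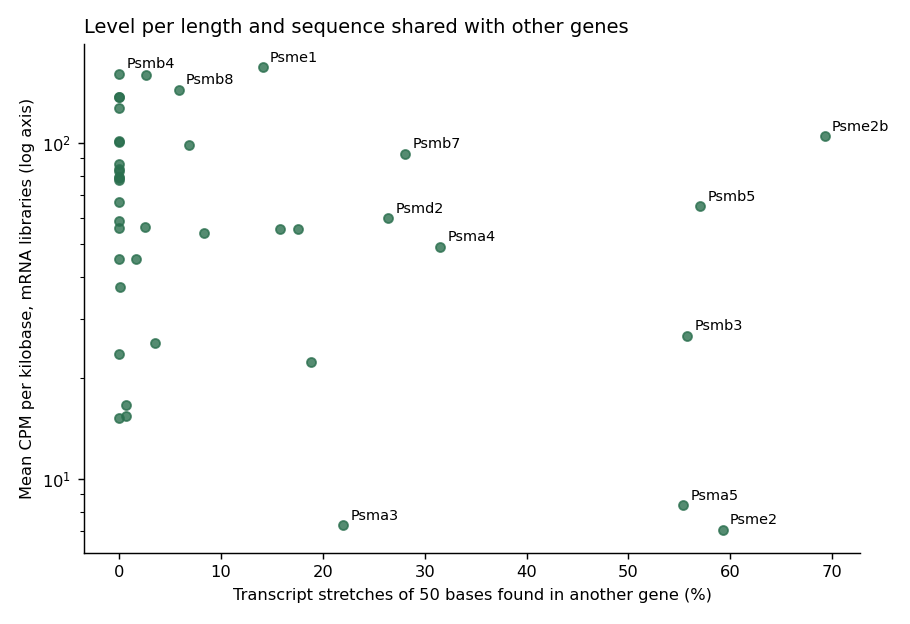
Mean mRNA level per transcript length (CPM per kb, log y axis) of each proteasome gene except Psma8 and Psmb11 against the percent of its 50-base stretches that also occur in another gene (x axis). The 5 genes with at least 50% shared have a median of 26.7 CPM per kb, and the 18 with none a median of 81.0.

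Genes that work with the proteasome were read from 3 lists. Over all genes tested, 3.64% were called in mRNA and 4.22% in total RNA libraries, so 0 or 1 call in lists this short lies near that share. Of 18 assembly factors and regulators, 0 were called in mRNA libraries (median -0.02), and 1, Zfand5, was higher in total RNA libraries (median -0.01). In either kind 2 of the 18 had an unadjusted p under 0.05 in edgeR, against 15.7% and 14.8% of all genes. Zfand5, whose product binds the proteasome and stimulates it, measured 157 and 172 CPM in WT against 239 and 277 CPM in Mut-labelled total RNA libraries, a clear gap between groups (log2 fold change 0.66, SE 0.16, edgeR adjusted p = 0.0238). The call was lost with DESeq2 (adjusted p = 0.166), with all 8 libraries in one fit (0.0665), when Mut-labelled library 2 (0.228) or WT library 1 (0.106) was left out, and the estimate turned to -0.45 under ERCC scaling. In mRNA libraries Zfand5 measured 151 and 156 CPM against 223 and 271 CPM (log2 fold change 0.69, SE 0.15, edgeR adjusted p = 0.0734). That value passed with DESeq2 (adjusted p = 0.0013). Psmg1, a chaperone of alpha ring assembly, had estimates of -0.44 in the mRNA (45.3 and 40.7 against 31.0 and 32.4 CPM, edgeR adjusted p = 0.238) and of -0.96 in the total RNA libraries (38.0 and 35.1 against 16.2 and 21.0 CPM, edgeR adjusted p = 0.128). Its groups did not overlap in either kind. Nfe2l1, the transcriptional driver of proteasome genes, was at -0.06 and -0.26, with 189 and 198 CPM in WT against 184 and 187 CPM in Mut-labelled libraries of mRNA.

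Of 17 genes for ubiquitin, its activation and its shuttling, 0 were called in either kind of library, with medians of -0.06 and 0.00. Of 14 genes of MHC class I presentation, 0 were called, with medians of -0.01 and 0.03. Again 0 calls lies near the share of all genes (3.64% in mRNA and 4.22% in total RNA libraries). At an unadjusted p under 0.05 in edgeR there were 1 of these 14 in mRNA (15.7% of all genes) and 3 in total RNA libraries (14.8%). For the ubiquitin list there were 0 in either kind. Nlrc5, the transactivator of MHC class I and immunoproteasome genes, was the member of that list with the smallest p in mRNA libraries. It measured 101 and 132 CPM in WT against 67.0 and 77.8 CPM in Mut-labelled libraries, without overlap (log2 fold change -0.69, SE 0.17, edgeR adjusted p = 0.114). Total RNA gave -0.49 for Nlrc5 (edgeR adjusted p = 0.301). There, 2 genes of the list had smaller p-values, with positive estimates. They were Irf1 (0.46, edgeR adjusted p = 0.270) and Tap2 (0.37, edgeR adjusted p = 0.292). DESeq2 called Nlrc5 in mRNA libraries (adjusted p = 0.0144). Psmb8, Psmb10 and Psme1, which interferon can induce, lay at 0.02, 0.07 and -0.12 in those libraries, with the ERCC values given above for the first 2.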

How the data were processed

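The authors deposited 1 table of raw counts per gene and library (whole numbers, not normalised, per the file headers and values). The submitters' processing notes name TopHat, featureCounts, edgeR and build mm9. Not given in the sources used here were versions, annotation, strand use and the handling of multiple mapping. The 92 ERCC and 3 rRNA entries were left out of library totals and tests. GENCODE M21 names were found for 32919 of 37991 identifiers. WT and Mut-labelled libraries (2 each per kind) were tested against each other in R 4.3.3 with edgeR 4.0.16: TMM, its low-count filter, quasi-likelihood test, two-sided, Benjamini-Hochberg over all genes tested, called at an adjusted p under 0.05. The procedure was run on simulated counts. These were drawn without a difference between library numbers, so that run does not cover the one seen here. Members, gene lists and tests were chosen with earlier results of these data known. Named were the catalytic subunits, the activators, the extreme estimates of each role, members with an unadjusted p under 0.05, members of restricted tissue use and called pathway genes; Psma5, Psmb2, Psmc2, Psmd1, Psmd2, Psmd14, Psmg1, Nfe2l1, Nlrc5 and others outside this rule were named after their values were seen. The ratio of catalytic subunits uses 2 pairs, since Psmb9 was not analysed here. Older names of 3 listed genes were not matched. Rows were found for 18 of 21 names of assembly factors and regulators, 17 of 18 ubiquitin and shuttle names and 6 of 7 erythroid markers. The counts of libraries of a group differed far beyond sampling noise (chi-square per degree of freedom 2.60 to 65.1). Alternatives were DESeq2 1.42.0, upper quartile and ERCC scaling, no filter, all 8 libraries in one fit, a replicate block and leaving out each library.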

Additional observations from a re-analysis of the deposited data

How the results depend on the processing

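Of 660 estimates of 34 named genes under alternatives, 555 kept direction and side of the threshold, and 89 turned direction, 58 of them with 1 library left out and 21 under ERCC scaling. Proteasome genes called stayed at 0 under DESeq2, upper quartile and ERCC scaling, no filter, all 8 libraries in one fit and every left-out library. The depth of the total RNA libraries limits their values: the median SE of members was 0.24 there and 0.19 in mRNA libraries. Genes called in mRNA libraries numbered 624, and 1615 with DESeq2, 170 under ERCC scaling and 602 to 815 with 1 library left out. In total RNA libraries they numbered 445, and 203 with DESeq2, 273 with all 8 libraries in one fit, 724 without the filter (more genes tested) and 386 to 598 with 1 library left out. The cause of the other changes was not tested. The proteasome medians were -0.49 (mRNA) and -1.10 (total RNA) under ERCC scaling, and -0.27 to 0.11 and -0.13 to 0.07 with 1 library left out.

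Under ERCC scaling all 12 positive mRNA estimates and all 18 positive total RNA estimates of proteasome genes turned negative. Among the genes whose estimates the text gives, those in mRNA were Psma3 -0.19, Psma8 -0.082, Psmb10 -0.32, Psmb3 -0.18, Psmb8 -0.35, Psmc6 -0.36, Psmd10 -0.28, Psmd8 -0.30, Psme2 -0.038 and Psme4 -0.22. In total RNA they were Psmb10 -0.89, Psmb7 -0.97, Psmc2 -0.91, Psmc6 -0.88, Psmd2 -0.90, Psmd9 -1.10, Psmd10 -0.71, Psmd5 -0.85, Psmd7 -0.90 and Psme4 -0.87, and Zfand5 turned to -0.45. Psmb8 turned to -0.0029 in mRNA under upper quartile scaling, and Psmb8 to 0.0019 and Psmd8 to 0.032 in total RNA with all 8 libraries in one fit. Estimates next to 0 turned in mRNA for Psmd4 (0.00052 with DESeq2, 0.00017 without the filter) and Psmd9 (0.0028 with DESeq2, 0.0022 without the filter, 0.00039 with all 8 libraries in one fit), and in total RNA for Psmd9 (-0.012 under upper quartile scaling). With 1 library left out, the mRNA estimates that turned ranged over Psma7 -0.39 to 0.083, Psmb10 -0.12 to 0.25, Psmb2 -0.39 to 0.086, Psmb4 -0.36 to 0.047, Psmb6 -0.29 to 0.0012, Psmb7 -0.43 to 0.18, Psmb8 -0.12 to 0.18, Psmc1 -0.45 to 0.023, Psmc2 -0.28 to 0.076, Psmc6 -0.069 to 0.13, Psmd10 -0.11 to 0.36, Psmd14 -0.30 to 0.097, Psmd2 -0.20 to 0.084, Psmd3 -0.16 to 0.066, Psmd4 -0.14 to 0.13, Psmd8 -0.025 to 0.18, Psmd9 -0.065 to 0.078, Psme1 -0.37 to 0.093 and Psme2b -0.37 to 0.16. The total RNA estimates ranged over Psma3 -0.43 to 0.17, Psmb2 -0.81 to 0.13, Psmb3 -0.40 to 0.12, Psmb4 -0.19 to 0.0053, Psmb5 -0.34 to 0.13, Psmb7 -0.053 to 0.29, Psmb8 -0.11 to 0.036, Psmc6 -0.15 to 0.66, Psmd14 -0.35 to 0.25, Psmd2 -0.0021 to 0.34, Psmd4 -0.19 to 0.073, Psmd7 -0.091 to 0.57, Psmd8 -0.28 to 0.25, Psmd9 -0.10 to 0.17, Psme1 -0.30 to 0.19 and Psme2b -0.39 to 0.0025.

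Libraries of one number in the 2 genotypes share only a number, with 2 pairs and no label that says what it marks; their deviations over genes correlated at 0.32 in mRNA and 0.22 in total RNA libraries. With the replicate number as a block, 2870 of 17128 genes were called in mRNA libraries, and 870 genes in total RNA libraries. Of the 42 proteasome genes tested in mRNA libraries 1 was then called, Psmd7 (-0.42, edgeR adjusted p = 0.00182), and of the 40 in total RNA libraries 0. At an unadjusted p under 0.05 in edgeR there were 8 of 42 in mRNA and 2 of 40 in total RNA libraries, against 0 and 1 without the block. These counts are not set beside a share of all genes here. Psmd9 turned to 0.00031 in mRNA. Psmg1 (adjusted p = 0.0395 in mRNA, 0.0480 in total RNA), and Zfand5 and Nlrc5 in mRNA libraries, were also called by edgeR under the block. For the dependence on the kind of library, the sorted sample as a block gave 111 genes.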
